A study of Mus musculus with 472 samples.

Results

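The clustered protocadherins of single mouse retinal ganglion cells (RGCs), the neurons that carry the output of the retina to the brain, are described here. Members were the gene columns whose symbol begins with Pcdha, Pcdhb or Pcdhg followed by an isoform name, and 58 of the 55450 genes of the table met this rule. The cells, each deposited as 1 sample, form 1 group without a treatment: all came from C57BL/6J mice 7 to 9 weeks old, and no sample label names the animal. Each cell was patched in an isolated, flat-mounted retina, stimulated with light, and its content was drawn into the pipette for Smart-seq2, a full-length RNA protocol without molecular identifiers. What was compared is therefore how the isoforms are distributed over cells, and nothing was tested between cells. Shares of cells carry exact 95% intervals that cover counting error only.

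Clustered protocadherins are cell-surface cadherins encoded by 3 neighbouring gene clusters, alpha, beta and gamma. In the alpha and gamma clusters each variable first exon has its own promoter and is spliced to constant exons shared by the whole cluster, while beta genes have no constant exons. In mouse neurons such as Purkinje cells, the so-called alternate isoforms are known to be switched on at random, a few per cell, whereas the C-type isoforms (Pcdhac1, Pcdhac2, Pcdhgc3, Pcdhgc4 and Pcdhgc5) are known to be regulated differently. The proteins of a cell bind the same proteins on another membrane, so that the combination acts as a label by which a neuron tells its own branches from those of others. In the mouse retina the gamma cluster is known for dendrite self-avoidance of starburst amacrine cells and for neuronal survival.

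The members comprised 14 alpha genes (12 alternates and 2 C-type), 22 beta genes, counted here among the alternates, and 22 gamma genes (19 alternates and 3 C-type). On the mm10 build, all lie on the plus strand of chromosome 18, with the alpha cluster at positions 36930184 to 37187661, the beta cluster at 37264938 to 37524479 and the gamma cluster at 37661793 to 37841873. All 22 beta genes have a single exon, and 20 of them share no exon base with another member. The alpha and gamma genes share a median of 53.4% and 44.7% of their exon bases with other members, the 3′ constant exons. The files hold estimated counts. Of the values above 0, 85.5% in alpha and 74.4% in gamma were not whole, against 2.05% in beta. Over all genes, 9.46% of the values above 0 were not whole. Fractions can arise where reads are divided between genes that share exons, but how reads were divided is not known, and this source was not tested. The alpha and gamma levels are therefore taken as less certain than the beta levels. A pair of columns carry the symbol Pcdha11 and are told apart by identifier; RefSeq names the gene at the place of ENSMUSG00000007440 Pcdha10.

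The median cell had 5184792.5 gene counts (range 58907 to 13004880). Positive means at least 10 CPM, counts per 1000000 gene counts of the cell, and the median number of positive genes was 5554.5, with a highest number of 8937. Of 12 general RGC genes, at least 6 were positive in 95.6% of cells, and Rbpms, an RNA-binding protein used as an RGC marker, was positive in 89.8%. The library names give 5 groups, called sequencing runs here. A group is a flow cell and lane where the name holds them, and otherwise a code in the name. For groups read from a code no flow cell or lane is known, so the word run is only a label for them. Run A holds the most cells, followed by B with 98, C with 62, D with 59 and E with 19. Run D stands apart with a median of 3024 positive genes per cell, so values by run accompany the results below.

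Nearly every cell contained clustered protocadherin RNA, and most cells contained a handful of isoforms. At least 1 member was positive in 96.2% of cells (interval 94.04 to 97.7%), and 18 cells had none. The number of positive members per cell had a median of 6, with quartiles at 3 and 9 and a range of 0 to 30. Cells with 10 or more positive members made up 23.5%, cells with 15 or more numbered 21, and 6 cells had 20 or more. Each cluster gave a median of 2 positive members, with up to 7 from alpha, 13 from beta and 14 from gamma. The 53 alternates gave a median of 5 per cell and the 5 C-type genes a median of 1.

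**Figure D1:**
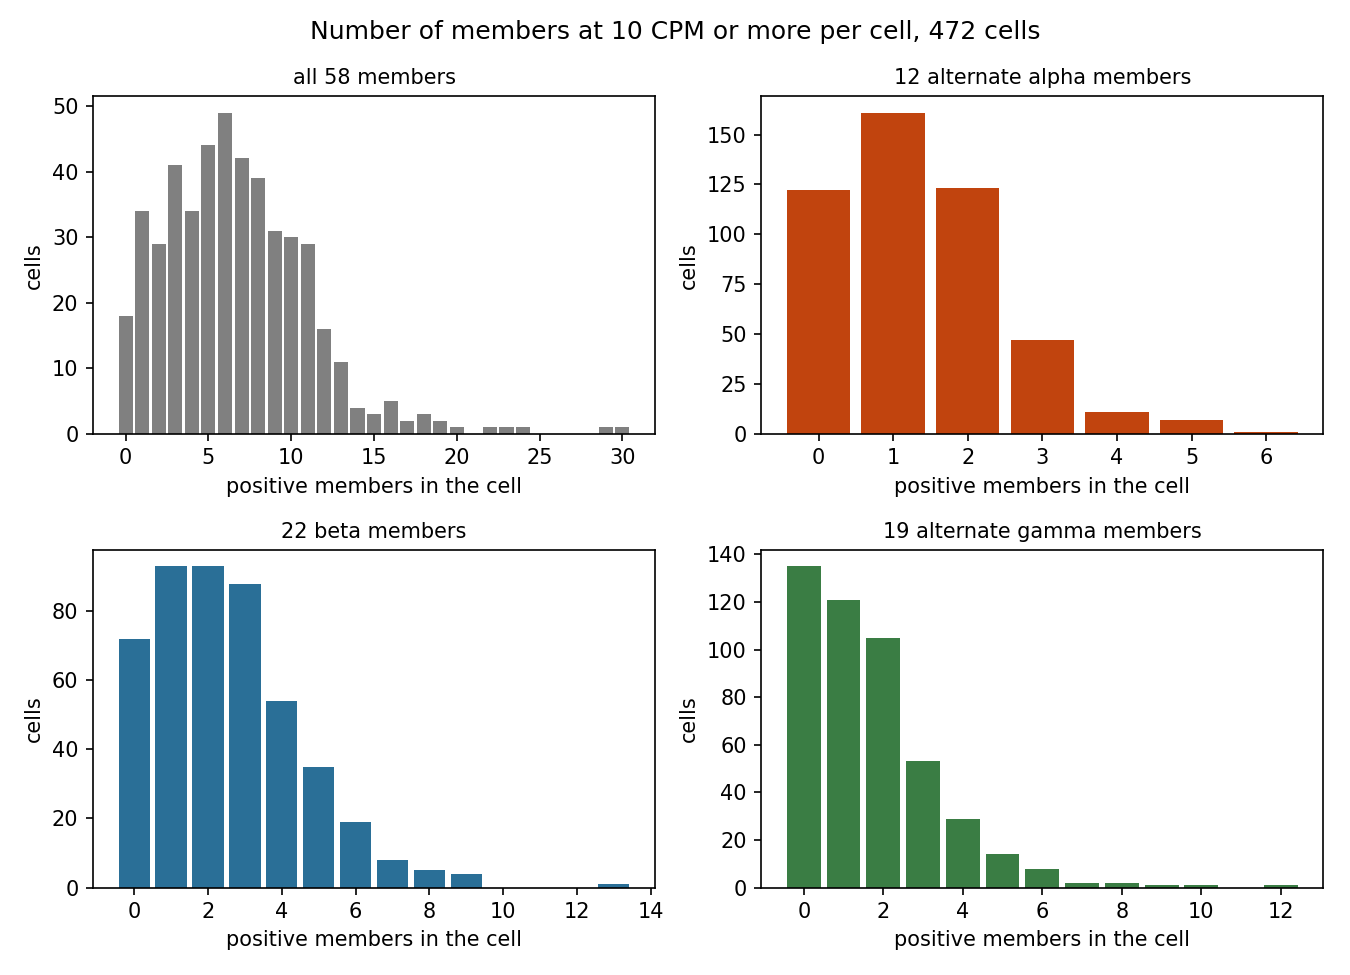
Histograms of the number of members at 10 CPM or more in a cell (horizontal axis) against the number of cells (vertical axis), for all 58 members and for the alternates of each cluster. The distribution over all members peaks at 6, and 1 was the commonest number of alternate alpha members.

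The number of members followed the number of genes detected in the cell. Over all cells, Pearson's r between positive members and positive genes was 0.672 and Spearman's rho 0.701, a description of points that share library depth and cell quality. In cells of the lowest quartile by positive genes the median was 2 members, and in the next 3 quartiles it was 6, 8 and 9. By run, run D had the lowest median (3 members) and run E the highest (10), and runs A, B and C had medians of 6.5, 6 and 7. Thinning each deep enough cell to 1000000 gene counts left the median at 6 (0 to 29). A threshold in CPM is already scaled to the total of the cell, so thinning cannot decide the part of total counts. The part that RNA recovery per cell plays was not tested.

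**Figure D2:**
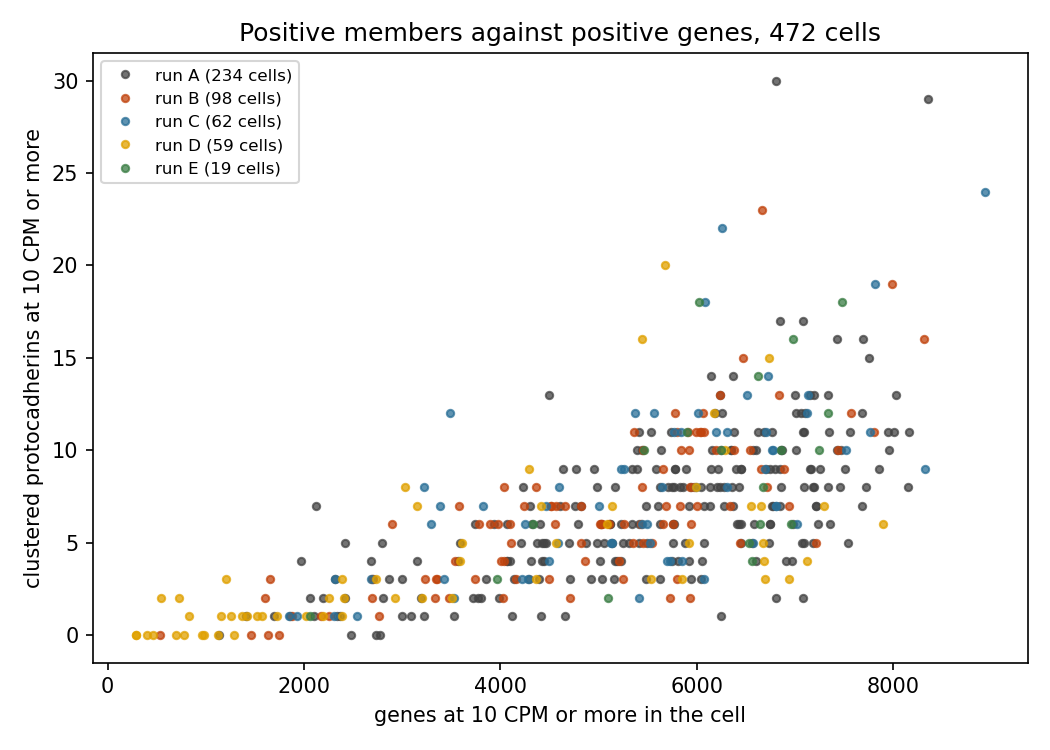
Each point is 1 cell, with its genes at 10 CPM or more on the horizontal axis, its clustered protocadherins at 10 CPM or more on the vertical axis and its sequencing run as colour. Cells with 0 members lie among those with few positive genes, and the cells of run D lie mostly at the left.

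The summed level of the 58 members had a median of 620 CPM per cell, with quartiles at 366.8 and 962 CPM and a range of 0.168 to 3444 CPM. The alpha, beta and gamma clusters contributed medians of 157.4, 183.8 and 200.1 CPM. In the cells with at least 2 positive members, the highest member gave a median of 30.3% of the sum, with extremes of 10.3% and 93.7%. The effective number of members in a cell (the inverse Simpson index of their levels) had a median of 4.51 over the cells with a positive member, so the RNA of most cells was divided over several isoforms.

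Single cells with the median number of 6 positive members illustrate the combinations; the cells given are those whose number of positive genes lay nearest the median of all cells. Cell RGC144 (run C) had Pcdha7 at 164.8 CPM, Pcdhb15 at 137.3 CPM, Pcdhga4 at 125.5 CPM, Pcdhgb2 at 85.3 CPM, Pcdhga2 at 34.1 CPM and Pcdhac1 at 19.1 CPM. Cell RGC243 (run A) had Pcdha7 at 232.5 CPM, Pcdhb20 at 161.98 CPM, Pcdhga9 at 48.998 CPM, Pcdhgc4 at 27.1 CPM, the Pcdha11 gene ENSMUSG00000102206 at 22.5 CPM and Pcdhb7 at 11.7 CPM. Cell RGC071 (run B) had Pcdhga8 at 249.1 CPM, Pcdhb19 at 219.2 CPM, Pcdhgb1 at 45.5 CPM, Pcdhgb5 at 21.5 CPM, Pcdhga6 at 16.04 CPM and Pcdhb7 at 11.3 CPM. The first and second of these cells had 1 member in common, Pcdha7, and the second and the third shared Pcdhb7, while the first and the third shared none.

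**Figure D3:**
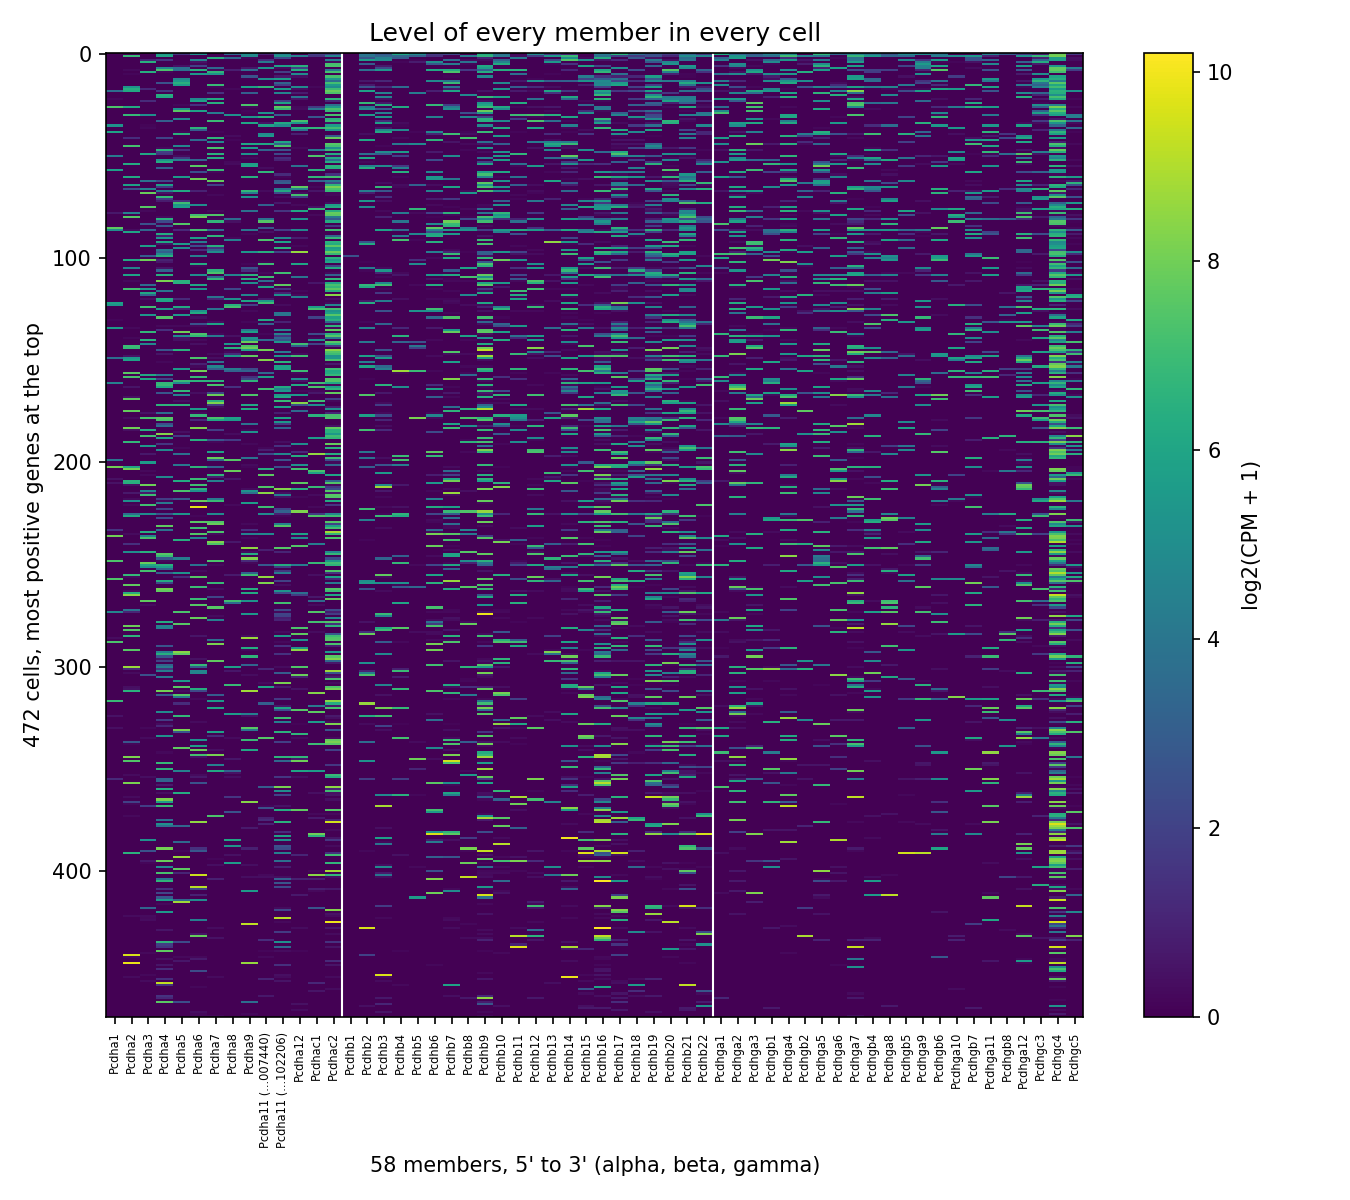
Heat map of log2(CPM + 1) for the 58 members (columns, 5′ to 3′ with white lines between the alpha, beta and gamma clusters) in all cells (rows, most positive genes at the top). Pcdhac2 and Pcdhgc4 reach 10 CPM in more rows than any other column, and the alternates appear as scattered marks.

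The combinations were mostly private to a cell, but only sets of clustered protocadherins were counted in this way. Whether other genes with similar shares of positive cells give as many private combinations was not tested. There were 92.2 distinct combinations of positive members per 100 cells, and 89.4% of cells (interval 86.3 to 92.03%) had a combination that no other cell had. The other 50 cells shared 13 combinations: 18 cells had no positive member, 9 had Pcdhgc4 alone, 3 had Pcdhb16 alone, and each of the remaining 10 combinations was found in 2 cells. Among all pairs of cells with a positive member (102831 pairs), 34.1% had no member in common, the median Jaccard index was 0.0833, 0.0477% had identical combinations, and the most members any 2 cells had in common was 15. With the alternates alone, 85.8% of cells had a combination of their own, and with the 22 beta genes alone, whose counts are nearly all whole, 63.6 distinct combinations per 100 cells were found. The 5 C-type genes gave 24 combinations.

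The C-type genes differed widely among themselves. Pcdhgc4, the gamma isoform known in mice to be needed for neuronal survival, was positive in 53.6% of cells (interval 48.99 to 58.2%), the highest share of the 58. Pcdhac2, known in mice for the spacing of serotonergic axons, was second with 36.7% (interval 32.3 to 41.2%). Pcdhgc5 was positive in 51 cells (10.8%, 8.15 to 13.96%), Pcdhgc3 in 36 cells (7.63%, 5.40 to 10.4%) and Pcdhac1 in 35 cells (7.42%, 5.22 to 10.2%). Without the cells that had 3 or more positive bipolar or cone markers, the share of Pcdhgc3 was 4.26%, below its interval over all cells. The intervals of Pcdhgc4 and Pcdhac2 do not overlap each other or those of the 3 less frequent C-type genes, whose intervals overlap one another and lie in the range of the alternates.

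Over all cells the level of Pcdhgc4 was 0 CPM at the lowest, 23.2 CPM at the median and 777 CPM at the highest, and that of Pcdhac2 was 0, 0.282 and 991 CPM. Pcdhac1, Pcdhgc3 and Pcdhgc5 had a median of 0 CPM, with highest values of 371.6, 149.005 and 334.6 CPM. In its positive cells Pcdhac1 was as high as Pcdhac2, with medians of 115.1 and 114.7 CPM, and Pcdhgc4 had a median of 97.3 CPM. Pcdhgc4 was the highest member in 73 cells (16.1% of those with a positive member) and Pcdhac2 in 48 (10.6%), ahead of Pcdhb9 in 28 and Pcdhb16 in 20. Per kilobase of exon, the mean level over cells was 14.4 CPM for Pcdhgc4 and 8.50 CPM for Pcdhac2.

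Across runs, the share of cells positive for Pcdhgc4 was 54.7% (A), 47.96% (B), 59.7% (C), 44.1% (D) and 78.9% (E). For Pcdhac2 it was 47.4% (A), 33.7% (B), 12.9% (C), 23.7% (D) and 36.8% (E). The order of these 2 genes was thus the same in every run. Run C, which had the lowest share of Pcdhac2, had a median of 5608 positive genes per cell. Its median of 4043742 gene counts per cell was the lowest of the runs. The part of depth in this share was not tested. Since no label ties runs to animals, runs and animals cannot be told apart.

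Combinations of C-type genes were led by Pcdhgc4 alone (23.7% of cells), Pcdhac2 with Pcdhgc4 (74 cells, 15.7%) and Pcdhac2 alone (49 cells, 10.4%). No C-type gene was positive in 27.3% of cells. In all, 23.7% of cells held both Pcdhac2 and Pcdhgc4, which was 1.20 times the number expected from their shares within runs. The other pairs of C-type genes had ratios of 1.04 (Pcdhgc3 with Pcdhgc5) to 2.26 (Pcdhac1 with Pcdhgc3), the last of them resting on 6 cells. The median over the 10 C-type pairs was 1.18, and over all pairs of genes positive in 5% to 90% of cells it was 1.12. With the expectation also within quartiles of cells by positive genes, the C-type median was 1.06. The same value over all pairs of genes positive in 5% to 90% of cells is not given here.

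The alternates were each present in a minority of cells. Their shares ran from 0% to 24.8% with a median of 9.11%, and the median over all 58 members was 9.32%. Among all genes, 23.3% were positive in at least 5% of cells, and 50 of the 58 members were. The median level of an alternate over its positive cells ran from 24.95 CPM (Pcdhgb5) to 110.995 CPM (Pcdhb9), with 62.8 CPM at the middle alternate.

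In the alpha cluster, the alternates Pcdha4 (81 cells, 17.2%, interval 13.9 to 20.9%), the Pcdha11 gene ENSMUSG00000102206 (68 cells, 14.4%, 11.4 to 17.9%) and Pcdha9 (66 cells, 13.98%, 10.98 to 17.4%) followed Pcdhac2. The lowest shares were those of Pcdha1 (21 cells, 4.45%, 2.77 to 6.72%) and Pcdha8 (23 cells, 4.87%, 3.11 to 7.22%), followed by Pcdhac1. The intervals of Pcdha4, Pcdha9 and this Pcdha11 gene overlap, and each lies above those of Pcdha1 and Pcdha8. This Pcdha11 gene varied with the run, at 20.1% (A), 6.12% (B), 11.3% (C), 3.39% (D) and 31.6% (E), and without run A its share was 8.82%. The levels over positive cells had medians of 73.8 CPM for Pcdha4, 54.3 CPM for the Pcdha11 gene, 58.8 CPM for Pcdha9, 53.5 CPM for Pcdha1 and 48.3 CPM for Pcdha8.

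In the beta cluster, Pcdhb9 was positive in 24.8% of cells (interval 20.96 to 28.9%), the highest share of any alternate. Pcdhb16 was positive in 23.1% (19.4 to 27.2%), Pcdhb21 in 21.2% (17.6 to 25.2%) and Pcdhb17 in 20.8% (17.2 to 24.7%), and these 4 intervals overlap. Pcdhb9 reached 956 CPM with a median of 110.995 CPM over positive cells, and Pcdhb16 reached 1176 CPM, the highest value of any member in any cell. Per kilobase of exon, the mean of Pcdhb9 was 12.1 CPM, between those of Pcdhgc4 and Pcdhac2. Pcdhb21 and its neighbour Pcdhb22 are the 2 beta genes whose exons overlap, so reads in the overlap cannot be assigned to either with certainty.

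At the low end of the beta cluster, Pcdhb1 was positive in 0 cells (interval 0 to 0.778%), and its highest value was 4.89 CPM. Pcdhb5 was positive in 12 cells (2.54%, interval 1.32 to 4.40%) and Pcdhb13 in 25 (5.30%, 3.46 to 7.72%). The 11 genes nearer the gamma cluster, Pcdhb12 to Pcdhb22, had a median share of 13.8%, and the 11 genes from Pcdhb1 to Pcdhb11 had a median of 9.11%. The ranges of the 2 sets overlap widely, at 5.30 to 23.1% and 0 to 24.8%.

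In the gamma cluster, the alternates Pcdhga2 and Pcdhga12 were each positive in 72 cells (15.3%, interval 12.1 to 18.8%) and Pcdhga7 in 71 (15.04%, 11.9 to 18.6%). Pcdhgb8, which the annotation lists as a polymorphic pseudogene, was positive in 11 cells (2.33%, 1.17 to 4.13%), Pcdhgb2 in 20 (4.24%, 2.61 to 6.47%) and Pcdhga10 in 22 (4.66%, 2.94 to 6.97%). The gamma cluster holds 2 subfamilies. The 12 members of subfamily A had a median share of 9.11% (4.66 to 15.3%) and the 7 of subfamily B a median of 6.99% (2.33 to 8.90%). Mean level per kilobase of exon differed in the same direction, with medians over genes of 1.86 CPM in subfamily A and 0.778 CPM in subfamily B, and the ranges of the shares overlap.

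**Figure D4:**
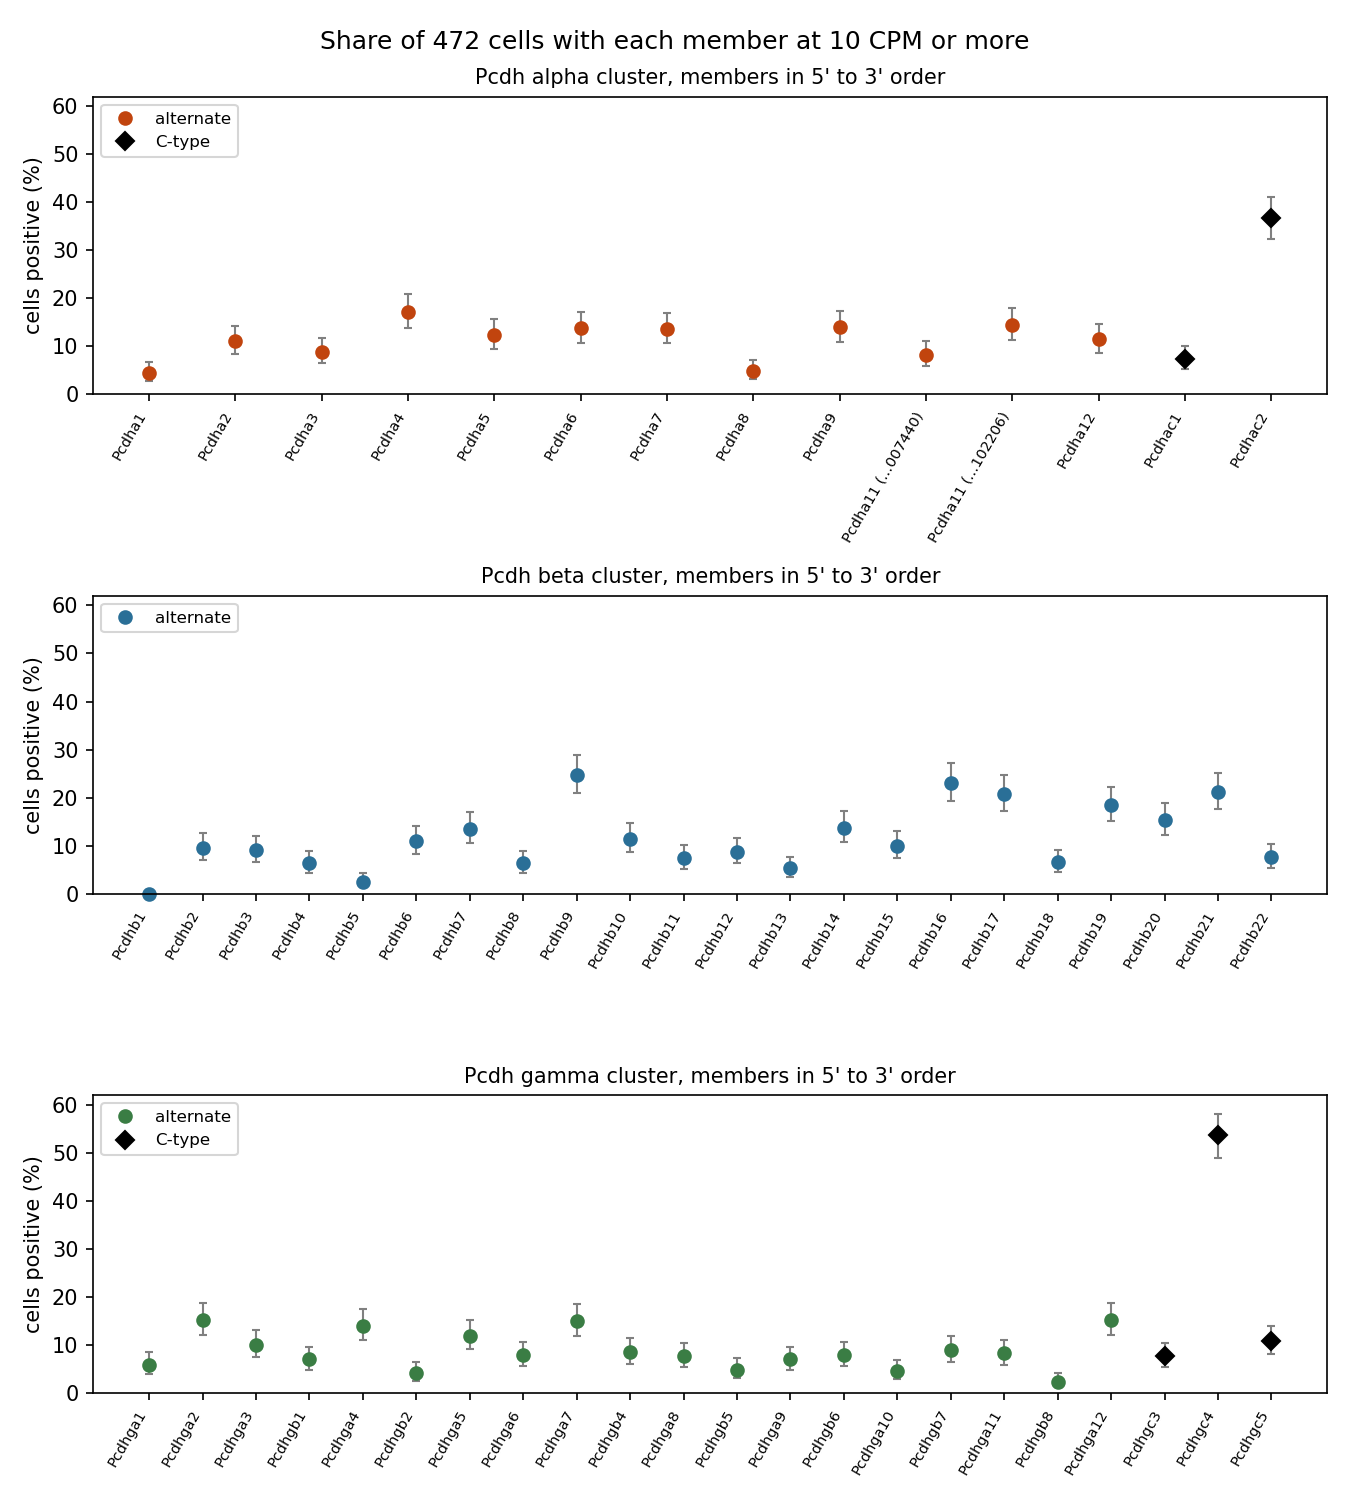
Share of all cells with each member at 10 CPM or more (vertical axis, percent) with exact 95% intervals, members in 5′ to 3′ order within each cluster, alternates as circles and C-type genes as black diamonds. Pcdhgc4 (53.6%) and Pcdhac2 (36.7%) stand above all others, Pcdhb9, Pcdhb16, Pcdhb17 and Pcdhb21 exceed 20%, and Pcdhb1 is at 0.

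When a member was present, its level in CPM was high for a gene present in so few cells. Of the 7114 genes positive in 2% to 25% of cells, 16% had a median of at least 50 CPM over their positive cells, and of the 55 members in this range 39 did. By cluster these were 12 of 13 alpha, 13 of 21 beta and 14 of 21 gamma genes. Among the beta genes were Pcdhb9, Pcdhb16 and Pcdhb17, whose exons overlap no other gene and whose values were whole in every cell. Pcdhb12 was also among them, but it overlaps the gene Gm37446 and 20.2% of its values above 0 were not whole. The median of these medians was 63.1 CPM for the members and 33.7 CPM over all such genes, and 52 of the 55 members were above 33.7 CPM. The limit of 50 CPM was chosen with the values in view. These levels are not scaled by exon length, which had a median of 5356 bases in alpha, 3714 in beta and 4819 in gamma genes. The comparison is not given per kilobase, and the part of exon length in it was not tested.

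Alternates of the 3 clusters were found together in most cells. At least 1 alternate was positive in 93.6% of cells (interval 91.1 to 95.7%) and at least 1 C-type gene in 72.7% (68.4 to 76.6%). Alternates of all 3 clusters were positive in 57.6% (53.03 to 62.1%), with the lowest share, 25.4%, in run D and the highest, 70.97%, in run C. By cluster, 74.2% of cells had an alternate of alpha, 84.7% a beta gene and 71.4% an alternate of gamma. An alternate without a C-type gene was found in 23.5% of cells and a C-type gene without an alternate in 12 (2.54%).

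In cell assays, the alternate alpha isoforms, Pcdhac1 and Pcdhgc4 are known to reach the surface poorly unless another isoform carries them. This gives 14 members that need a carrier and 44 that can act as one. Of the cells positive for Pcdhgc4, 94.1% (interval 90.4 to 96.6%) were also positive for at least 1 possible carrier, and of the cells without Pcdhgc4, 86.3% were. Of the cells with an alternate alpha isoform or Pcdhac1, 94.9% (92.1 to 96.98%) held a carrier, and of the cells without these, 76.7% did. Cells with a carrier-dependent member lacking any positive carrier were thus few, but cells with more positive genes also had more positive members, as given above.

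Whether pairs of isoforms met in a cell more or less often than their frequencies give was described by the ratio of the cells positive for both to the number expected from the shares within runs. Over the 1402 member pairs with at least 2 expected cells the median ratio was 1.30. Genes in general also met more often than the shares give: the median was 1.18 over all pairs of genes positive in 5% to 25% of cells, and 1.30 over the 1111 member pairs in the same range. In that range, 3.56% of all gene pairs met at least 2 times as often as the shares give, and 83 of the 1111 member pairs (7.47%) did. When the expectation was also taken within quartiles of cells by positive genes, the median was 1.12 for these member pairs and 1.02 for all gene pairs.

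The 3 clusters differed in this respect. Pairs of alternate alpha genes met about as often as their frequencies give, with a median ratio of 1.04 (64 pairs), against 1.26 within beta and 1.41 within the alternate gamma genes. Pairs from different clusters had medians of 1.30 (alpha with beta), 1.36 (alpha with gamma) and 1.38 (beta with gamma), so alpha alternates met alternates of other clusters more often, relative to their frequencies, than they met each other. With the expectation within quartiles of positive genes as well, the median was 0.937 within alpha, 1.13 within beta and 1.16 within gamma. By place in the cluster, alpha alternates had medians of 0.993 as neighbours (11 pairs), 0.995 at 2 or 3 places apart (19 pairs) and 1.22 at 4 or more (34 pairs). The corresponding medians were 1.43, 1.32 and 1.23 within beta and 1.59, 1.496 and 1.37 within gamma.

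These pair values carry 2 limits. The labels do not say how reads of the constant exons were divided among the alpha or the gamma genes, and the part of this division in the ratios was not tested. Without the cells that had 3 or more positive bipolar or cone markers, the median was 0.930 within alpha, 1.26 within beta and 0.999 within gamma, so the value within gamma was above 1 with these cells and not without them, while alpha stayed below beta. With fewer cells, fewer pairs reach 2 expected cells.

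**Figure D5:**
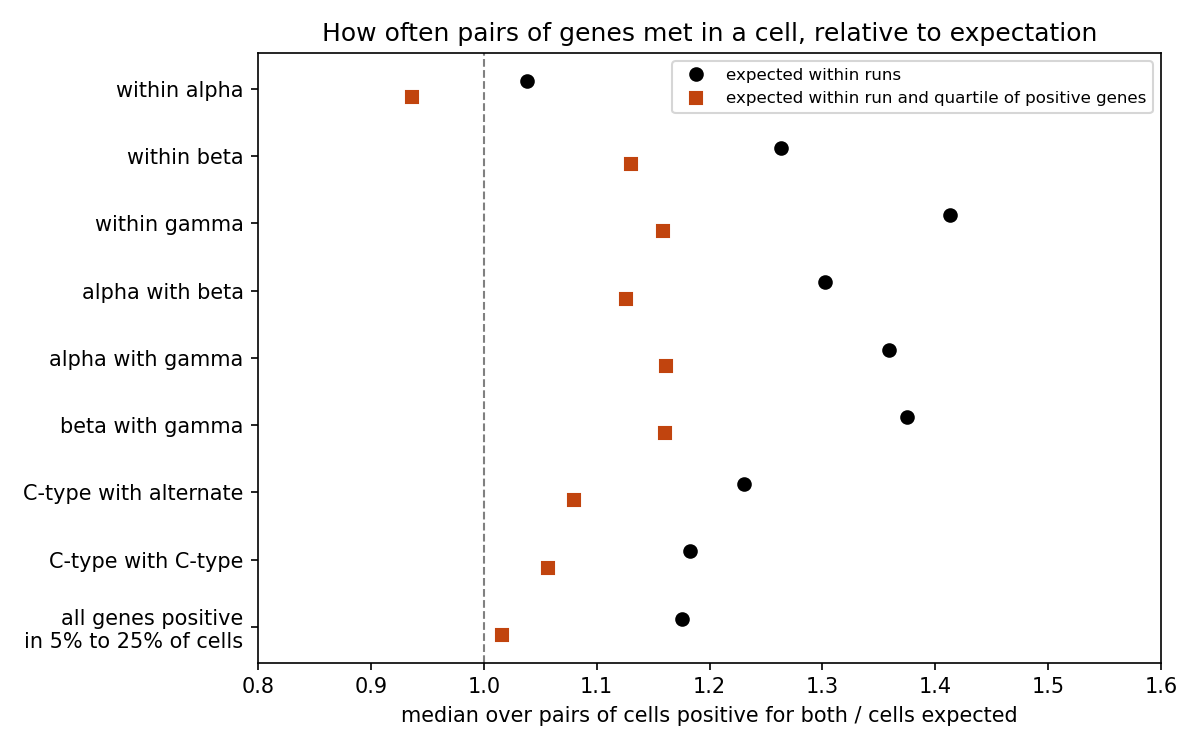
Median over pairs of the number of cells positive for both genes divided by the number expected (horizontal axis; the dashed line marks 1), by kind of pair, with the expectation taken within runs (black circles) or within run and quartile of positive genes (squares). Within alpha, the circle is at 1.04 and the square at 0.937, the lowest of the kinds in both cases.

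The isoform repertoire was then set beside 6 classes of RGCs, each defined by marker genes at 10 CPM or more and compared with all other cells. The classes are not exclusive. For example, 39 of the 79 Tbr1-positive and 28 of the 75 melanopsin-class cells were also alpha-like. Of the 50 direction-selective-like cells, 21 were also positive for Mmp9 and Htr1d. A member was counted when its share of positive cells differed by 20 percentage points or more; cells of a class share no animal label, so these are descriptions of these cells. The background is the 12917 genes positive in at least 5% of all cells, which include 50 of the 58 members. A member at the median share of 9.32% can pass this rule only by being higher in the class. Of the 50 members, 1 was past the rule in 1 class, and none of the 8 rarer members was past it in any. It was Pcdhac2 in the alpha-like cells (Spp1 and Kcng4 positive), where 6.52% of the 12917 genes were also past it. Pcdhac2 was positive in 53.8% of alpha-like cells and 31.7% of other cells, and its median level was 27.6 CPM in alpha-like cells and 0.0642 CPM in other cells. The exact intervals of its shares did not overlap, as for 26.4% of the 12917 genes, and those of every other member did. In every other class the share of Pcdhac2 was also higher than outside the class. It was 49.2% against 34.9% (Irx3-positive and Eomes-negative), 47.3% against 33.4% (Mmp9 and Htr1d positive) and 46.8% against 34.6% (Tbr1-positive). In melanopsin-class cells it was 44% against 35.3%, and in direction-selective-like cells 42% against 36.02%.

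The size of the Pcdhac2 difference between alpha-like and other cells varied between runs and between quartiles of positive genes. Alpha-like cells had a median of 6462.5 positive genes, and other cells had 5365. Within run A, which held 82 of the alpha-like cells, Pcdhac2 was positive in 56.1% of alpha-like cells and 42.8% of other cells. In the other runs, where alpha-like cells numbered 8, 2, 11 and 3, the shares were 50% in alpha-like against 32.2% in other cells (B), 0% against 13.3% (C), 45.5% against 18.8% (D) and 66.7% against 31.3% (E). By quartile of positive genes, from lowest to highest, the shares were 23.1% in alpha-like against 7.62% in other cells, 28.6% against 29.9%, 63.6% against 45.8%, and 68% against 51.5%. Thinning to 1000000 counts moved the shares little, to 52.8% in alpha-like and 32.9% in other cells, just under the rule. Pcdhgc4, for comparison, was positive after thinning in 60.4% of alpha-like cells and 52.1% of other cells.

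In the 50 direction-selective-like cells (Col25a1 and Cdh6 positive), cells had a median of 9 positive members, against 6 in the other cells, and after thinning 8 against 6. Their median of positive genes was 6045, against 5474 in other cells. No member was past the rule at 10 CPM, where 4.30% of the 12917 genes were. Smaller differences were present. Pcdhga2 was positive in 32% of direction-selective-like cells and 13.3% of other cells, Pcdhga12 in 30% and 13.51%, the Pcdha11 gene ENSMUSG00000007440 in 22% and 6.64%, and Pcdhga9 in 20% and 5.45%. The exact intervals did not overlap for these 4 of the 50 members, nor for 7.17% of the 12917 genes, so the members' part was near that of genes in general. Among the 8 rarer members they did not overlap for Pcdhgb8, positive in 5 direction-selective-like cells (10%) and in 1.42% of other cells. The share of all genes as rare as these for which they did not overlap is not given here, so this call has no background. At 1 CPM, 4.29% of the 14950 genes positive in at least 5% of cells were past the rule. There, Pcdhga12 differed by 24.1 points, Pcdhb3 by 21.4 and Pcdhga2 by 20.4, all higher in the direction-selective-like cells. How many members were among the 14950 genes is not given here. Within run A at 10 CPM, Pcdhga2 differed by 26.7 points, and the share of all genes past the rule within run A is not given here.

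In the other 4 classes 0 members were past the rule. The shares of the 12917 genes past it were 0.735% in the 75 melanopsin-class cells (Opn4 or Eomes positive), 2.98% in the 79 Tbr1-positive cells, 4.18% in the 59 Irx3-positive and Eomes-negative cells and 4.58% in the cells positive for Mmp9 and Htr1d. The median number of positive members was 7, 7, 8 and 7 in these classes, and 6 in the other cells each time. The exact intervals did not overlap for 1 of the 50 members in melanopsin-class cells, where they did not for 3.60% of the 12917 genes. It was Pcdhga4, positive in 25.3% of melanopsin-class cells and 11.8% of other cells. In the Tbr1-positive, Irx3-positive and Mmp9-positive classes the intervals of every member overlapped, while those of 12.6%, 11.2% and 24.8% of the 12917 genes did not.

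By list medians, genes of the machinery that acts on the clusters had higher shares than the median gene positive in any cell, though Dnmt3b was below it. Isoform choice is known to depend on CTCF, which binds the variable promoters, and on cohesin, which loops them to enhancers. Of 12 genes of this machinery, the highest shares were those of Mau2 (62.7%), a cohesin loader, and of the cohesin subunits Smc1a (61.2%) and Smc3 (58.7%), and the lowest those of the subunits Stag1 (39.4%) and Stag2 (29.2%); Ctcf itself was positive in 41.1% of cells. Of the 9 genes of DNA methylation and silencing reported here, Tet2 (75.4%), which oxidises methylated cytosine, Dnmt3a (70.1%), a methyltransferase, and Tet3 (58.3%), which acts like Tet2, were highest. Rest (13.6%), a repressor, and Dnmt3b (1.69%), the methyltransferase known in mice to methylate the variable promoters in the embryo, were lowest. The list medians were 48.8% and 46.6%, and the median over the 22436 genes positive in any cell was 9.75%.

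Downstream, the 10 genes of the WAVE complex and its partners, which link protocadherin tails to actin, had a median share of 65.7%. Cyfip2 (92.8%), Abi2 (80.1%) and Wasf3 (79.03%) led, and Cyfip1 (29.9%) and Wasf2 (22.7%) were lowest. The 13 genes of signalling and cleavage had a median of 42.8%, with Wnk1 (83.7%), a kinase, Ncstn (68.4%), a subunit of gamma-secretase, which cuts protocadherins, and Pdcd10 (64.4%) highest. Axin1 (14.4%) and Ptk2b (3.60%), a kinase inhibited by protocadherin tails, were lowest. The 10 delta protocadherins, related genes outside the clusters, had a median share of 38.1% (4.87 to 87.1%), well above the 9.32% of the clustered members.

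For each of 7 marker lists of other retinal cells, the cells with at least 3 markers positive had the higher median number of members. The cells with at least 3 of 8 amacrine markers positive had a median of 7.5 members and 5934 positive genes, against 5 members and 5165.5 genes in the other cells. The cells with at least 3 of 8 Müller glia markers had 7 members and 5834 genes, against 3 and 3780 in the other 97. For the bipolar list the medians were 7 members in cells with at least 3 markers and 6 in the others, for the rod list 7 and 6, and for the cone list 7.5 in the 54 cells with at least 3 and 6 in the others. The 13 cells with at least 3 of 6 microglia markers had a median of 10 members and 6235 positive genes, against 6 and 5539 in the others, and the 11 with at least 3 of 5 astrocyte markers had 7 and 6781, against 6 and 5537. The summed level of the amacrine markers ran from 50.9 to 4880 CPM in cells with at least 3, and from 0 to 2014 CPM in the others. The 6 cells with 20 or more members, at 30, 29, 24, 23, 22 and 20, had 5, 7, 7, 7, 1 and 1 of the 8 bipolar markers and 7, 8, 8, 6, 2 and 6 of the 8 amacrine markers positive. The part of other cells' RNA in the number of members was not tested beyond leaving out cells with bipolar or cone markers.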

How the data were processed

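Single-cell RNA was measured in 472 patched cells. Estimated counts per gene were deposited by the authors for 55450 genes and 92 spike-in RNAs; per the submitters' processing notes, reads of 150 bases were aligned with STAR 2.7.0 to mm10. The sources used here name no quantification tool. Here, counts were rounded and scaled to 1000000 gene counts per cell (CPM). All identifiers matched GENCODE mouse release 21, which gave positions and exons. Depth ran from 58907 to 13004880 counts per cell, and its part in the detection of single members was not tested beyond thinning. Runs (234 cells in A) came from library names. Thinning kept 465 cells. Classes held 106 alpha-like, 50 direction-selective-like, 75 melanopsin-class, 79 Tbr1-positive, 59 Irx3-positive and Eomes-negative, and 110 Mmp9 and Htr1d positive cells. Each sample is 1 cell with no named animal, so no test was run; intervals are Clopper-Pearson, at 95%, for counting error only, and the floor for a share of 0 is 3 cells. Steps were checked on simulated data.

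Members, lists and classes were chosen with earlier results of these data known. Given with values are the C-type genes, the 4 highest and 3 lowest members per cluster by share, members past the class rule, and the 3 highest and 2 lowest genes of each other list; Ctcf and the members of the example cells were added after values were seen. Sequences and 1 gene that the rule allows are not reported here, and its list was computed without it. No doublet caller was run, since cells were picked singly. Alternatives were thresholds, thinning, left-out cells and left-out runs. Python 3.11.15, pandas 2.3.3 and scipy 1.17.1 were used.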

Additional observations from a re-analysis of the deposited data

Results flagged for a closer look

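Several genes of the locus are no members, but have exons that overlap a member's exons. Those given here were positive in more than 0.636% of cells, the floor of 3 cells set for a share of 0. They were picked out because the comparisons do not use them. Gm10544 was positive in 9.32% of cells and Gm10545 in 4.87%, both overlapping alpha genes on the other strand. Gm42416, a readthrough gene that runs through the clusters, was positive in 3.81%. Gm26672 was positive in 4.24%, BC037039 in 2.97%, Gm37165 in 1.91%, Gm38182 in 1.48% and Gm37446 in 0.847%. Smart-seq2 does not mark strand, so reads of a member and of an overlapping gene cannot be told apart.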

How the results depend on the processing

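No paired analysis was possible because all cells form 1 group and no test was run. At a threshold of 1 CPM, the median share was 12.7%, the median number of positive members 8, the share with an alternate 96.6% and with a C-type gene 80.1%, and 3 members were past the class rule in direction-selective-like cells. At 100 CPM, the same quantities were 2.97%, 2, 73.5% and 44.1%. Among cells with at least 3000 positive genes, 98.7% had an alternate and 79.9% a C-type gene. There, within run A alone and after thinning, 0 members were past the rule in alpha-like cells. At 1 CPM, Pcdhac2 was past it in alpha-like cells, with a difference of 20.5 points. Within run A 1 member was past it in direction-selective-like cells. For none of these settings is the share of all genes past the rule given, so these calls have no background. Distinct combinations per 100 cells ran from 65.5 at 100 CPM to 99.2 among cells with at least 3000 positive genes. Without run A, 67.2% of cells had a C-type gene, and without run D, 95.9% had an alternate. The median pair ratio was 1.20 to 1.36 across the other thresholds, thinning and left-out cells or runs and 1.11 within quartiles of positive genes. The ratios within the alpha and gamma alternates could not be computed at 100 CPM, where no pair reached 2 expected cells. Of 23 members described, the share moved beyond its interval for 12 at 1 CPM and 22 at 100 CPM. The within-quartile expectations, the ratios per cluster, the thinned class rule, the overlap of class intervals and the limits of 50 CPM and 2 times were chosen after seeing the data. After thinning to 1000000 gene counts, the share of each of these 23 members stayed within its interval. The part of RNA recovery in the shares of the rarer members was not tested. Intervals do not cover differences between animals.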
